A study of Neotoma stephensi and Rattus norvegicus with 6 samples.

Results

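Cytochromes P450 and the proteins that serve them were followed in the foregut of woodrats and lab rats. Members were taken by gene symbol: every symbol that begins with Cyp and a digit, leaving out the sterol demethylase Cyp51, together with the electron donors Por, Cyb5a, Cyb5b and Cyb5r3 and the Ah receptor genes Ahr, Arnt and Ahrr. They numbered 80 of the 15481 mouse genes in the count files, of which 73 were P450 genes from 12 families and 31 subfamilies and 7 were partner genes.

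P450 enzymes hold a haem group and insert an oxygen atom into lipophilic substrates, and the microsomal enzymes among them draw their electrons from P450 oxidoreductase (Por) and cytochrome b5. Enzymes of families 1 to 3 are best known for the oxidation of plant toxins and drugs, whereas other families act on fatty acids, sterols, vitamin D and retinoic acid. Keratinized squamous epithelium, such as skin, expresses its own set of P450s, and the ligand-activated Ah receptor and its partner Arnt induce family 1 enzymes. Rodent subfamilies such as 2a, 2b, 2c, 2d, 2j, 3a and 4f have expanded separately in different species, so a mouse paralog that received reads from a woodrat or a lab rat need not be the ortholog of the gene that was transcribed.

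The samples were pieces of the fornix ventricularis, the non-glandular fundus of the stomach, from 3 Stephens' woodrats (Neotoma stephensi) and 3 Sprague Dawley lab rats (Rattus norvegicus), all female, with 1 polyA library per animal. Woodrats were caught in the wild, fed juniper foliage and dissected after a night in the laboratory, whereas lab rats were bought from a breeder and kept on standard chow, and ages were not given in the sources used here. The sample labels call every animal virgin, although per the study's methods the reproductive history of the woodrats was unknown. Species, diet, housing and origin therefore cannot be told apart in these data.

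Each library held between 5439642 and 7932637 counted reads, and 3 reads corresponded to between 0.355 and 0.586 CPM, which are read counts scaled to library size after TMM normalization, a correction for differences in library composition. A gene was tested when 3 or more animals reached 1 CPM, which left 12603 genes. Of these, 20.0% passed an FDR of 0.01 in edgeR's quasi-likelihood test, 10.3% with higher and 9.71% with lower abundance in woodrats. Every gene in the files had woodrat reads, so a P450 transcript read in lab rats alone is not analysed here. Squamous markers were abundant in both species, with a summed level over 11 markers of 19250 to 45700 CPM in woodrats and 20980 to 27530 CPM in lab rats. The sum hides differences between markers, of which 18.2% passed, beside 20.0% of all tested genes. Krt4 was higher in woodrats (log2 fold change 3.34, FDR = 0.00626), Ivl was lower (-4.96, FDR = 0.000172) and the other 9 did not pass. Markers of smooth muscle summed to 34130 to 109300 CPM in woodrats and 9564 to 17360 CPM in lab rats over 6 genes, with the highest value in woodrat 1, which also had the lowest squamous level of the woodrats. The 7 leukocyte markers summed to 7.03 to 22.5 CPM in woodrats and 35.8 to 76.0 CPM in lab rats. Of 8 glandular stomach markers, Atp4a had 31 to 48 reads per woodrat and 35 to 67 per lab rat, Muc5ac had 12 to 33 per woodrat and 0 in each lab rat, and the other 6 had at most 9 reads in any animal.

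Of the 73 P450 genes, 31 passed the filter and were tested. A total of 12 differed between the species at an FDR below 0.01, with 5 more abundant in woodrats and 7 more abundant in lab rats. These 12 were 38.7% of the tested P450 genes, beside 20.0% of all tested genes. Without lab rat 1, 2 or 3 the number more abundant in woodrats was 3 each time, and the number more abundant in lab rats was 5 or 6 with any 1 animal left out. At an FDR below 0.05, which 39.9% of all tested genes passed, 7 P450 genes were more abundant in woodrats and 10 more abundant in lab rats. None of the 7 partner genes passed an FDR of 0.01 in edgeR. An unadjusted p below 0.05 in edgeR was reached by 3 of the 7, and by 6259 of all 12603 tested genes. DESeq2 called 1 partner gene at an adjusted p below 0.01, beside 31.1% of all genes. The median log2 fold change of the tested P450 genes was -0.11, against 0.03 over all tested genes, and 15 genes had a positive and 16 a negative value. The 2 species did not overlap in 18 of the 31 tested P450 genes, and in 56.2% of all tested genes. These shares cover the members that passed the filter and not the 42 that were left out. A gene that passed through the animals of 1 species only had its lack of overlap largely set by the filter. Cyp1b1, Cyp2j12 and Cyp4f18, all called, passed in this way, and the share over all tested genes holds such genes too.

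**Figure D1:**
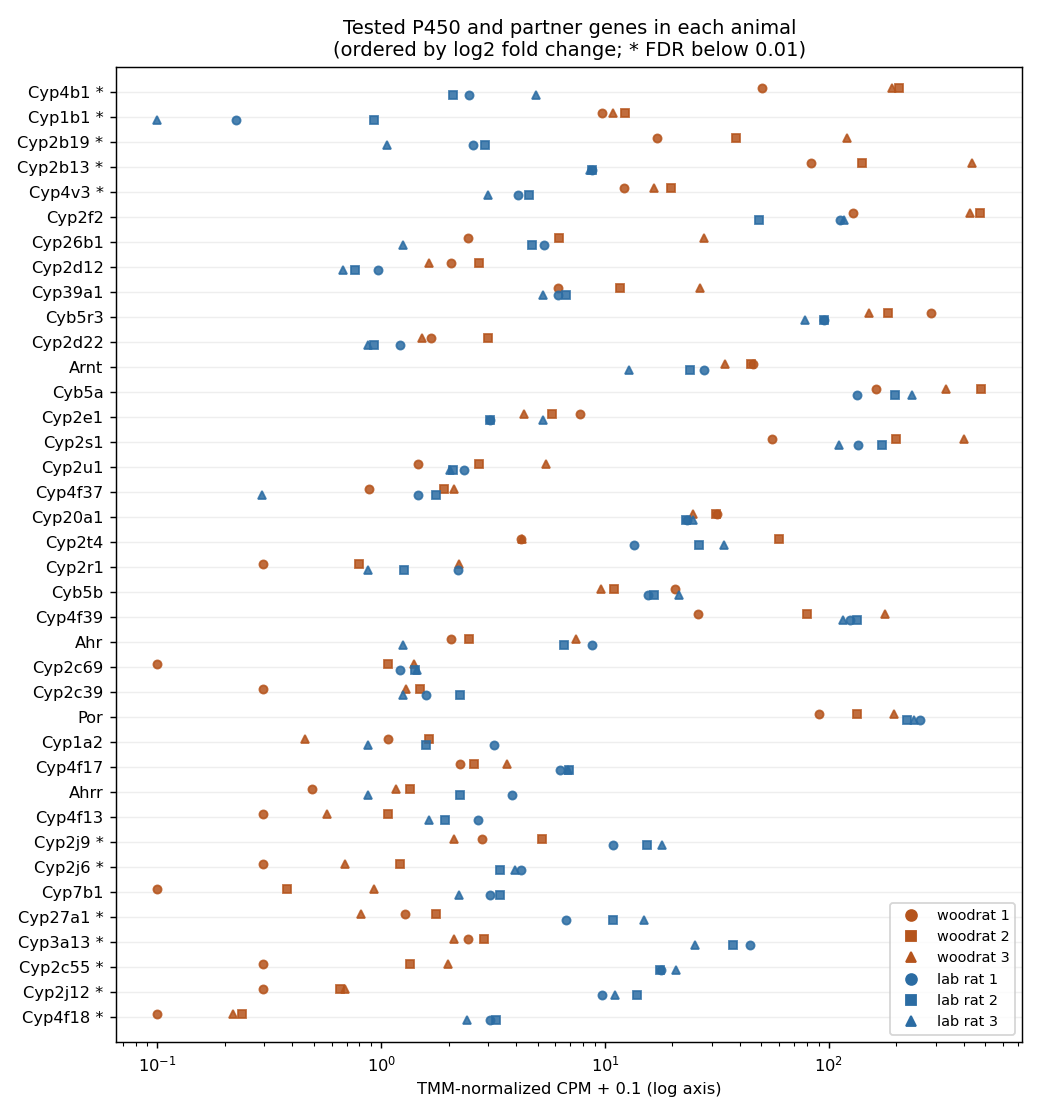
TMM-normalized CPM (plus 0.1, log axis) of the 31 tested P450 genes and 7 partner genes in each of the 3 woodrats (orange) and 3 lab rats (blue), ordered by log2 fold change, with asterisks at an FDR below 0.01. Cyp4b1 stood at 50.0 to 205 CPM in woodrats and 1.98 to 4.82 CPM in lab rats, and at the bottom Cyp4f18 stood at 0 to 0.139 CPM in woodrats and 2.31 to 3.14 CPM in lab rats.

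The summed level of all 73 P450 genes was 458, 1327 and 1907 CPM in woodrats 1, 2 and 3 and 576, 570 and 552 CPM in lab rats 1, 2 and 3. Woodrat 1 therefore lay below every lab rat, while the other woodrats lay above them. The means were 1231 ± 729 CPM (SD, n = 3) and 566 ± 12.4 CPM (SD, n = 3), a ratio of 2.17. With woodrats this far apart the groups overlapped, and no test was made of this sum. Reads were concentrated in a few genes, as Cyp2f2, Cyp2s1, Cyp2b13, Cyp4f39 and Cyp4b1 held 74.7% to 85.6% of P450 reads in woodrats and 64.2% to 66.5% in lab rats. Within this group of 5, the shares of 4 genes did not overlap between species, and those of Cyp2s1 did. In CPM, 56.2% of all tested genes did not overlap. A share moves with the other P450 genes of the animal too, and in CPM Cyp4f39 overlapped between species. Cyp4b1 held 10.1% to 15.5% of P450 reads in woodrats and 0.348% to 0.872% in lab rats. Cyp2f2 held 22.4% to 35.5% in woodrats and 8.53% to 21.2% in lab rats. Cyp2b13 held 10.6% to 22.9% of P450 reads in woodrats and 1.51% to 1.54% in lab rats. For Cyp4f39 the shares were 5.67% to 9.29% in woodrats and 21.0% to 23.5% in lab rats. Shares of reads also depend on the coding length of each gene, which the files do not give, so levels are compared here within a gene and not between genes.

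**Figure D2:**
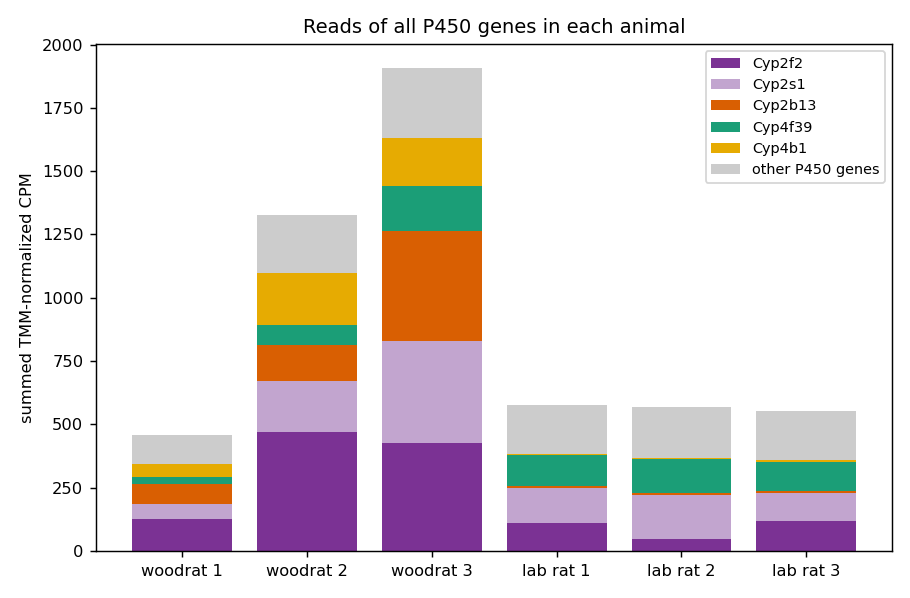
Summed TMM-normalized CPM of all P450 genes in each animal, with the 5 most-read genes in colour and all other P450 genes in grey. Lab rat bars reach 552 to 576 CPM and those of woodrats 458, 1327 and 1907 CPM, with the Cyp2b13 and Cyp4b1 segments visible mainly in woodrats.

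Cyp4b1 (ENSMUSG00000028713.16), a fatty acid hydroxylase that also activates plant furans such as ipomeanol, had the largest fold change toward woodrats of any member tested. It stood at 50.0, 205 and 192 CPM in woodrats 1, 2 and 3 and at 2.36, 1.98 and 4.82 CPM in lab rats 1, 2 and 3. Even the lowest woodrat was far above the highest lab rat. The log2 fold change was 5.63 (standard error, SE, 0.64, with FDR = 0.000782), a 49.5-fold difference, and leaving out each animal in turn kept it between 5.27 and 6.08 with the FDR below 0.01 in all 6 fits.

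Cyp1b1 (ENSMUSG00000024087.3), an oxidase of oestrogens and polycyclic hydrocarbons that the Ah receptor induces, had 49, 88 and 91 reads in the woodrats and 1, 5 and 0 in the lab rats. These counts equal 9.57, 12.2 and 10.8 CPM in woodrats and 0.124, 0.827 and 0 CPM in lab rats. Woodrats were close to one another, whereas 2 of the 3 lab rats were below the level that 3 reads can show. The log2 fold change was 5.03 (SE 0.70, FDR = 0.00152), and it was 6.88 without lab rat 2, which held 5 of the 6 lab rat reads.

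Both Cyp2b genes in the files were more abundant in woodrats. Cyp2b19 (ENSMUSG00000066704.5) is known in the mouse as an arachidonic acid epoxygenase of keratinocytes, and Cyp2b13 (ENSMUSG00000040583.7) is a close paralog. Cyp2b13 stood at 82.8, 140 and 436 CPM in woodrats 1, 2 and 3, while the lab rats lay within 8.48 to 8.69 CPM. The difference was 4.67 on the log2 scale (SE 0.63, FDR = 0.00132). Cyp2b19 stood at 17.0, 38.2 and 121 CPM in woodrats and at 2.48, 2.81 and 0.963 CPM in lab rats. This gave a log2 fold change of 4.78 (SE 0.78, FDR = 0.00265). In both genes woodrat 3 was highest, and without it the log2 fold changes were 3.70 and 3.69. Without lab rat 3 the FDR of Cyp2b13 was 0.0120, and that of Cyp2b19 was 0.0109, 0.0105 and 0.0192 without lab rats 1, 2 and 3.

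Cyp4v3 (ENSMUSG00000079057.3), a fatty acid hydroxylase, was the fifth gene higher in woodrats. Levels were 12.1, 19.6 and 16.5 CPM in woodrats and 3.97, 4.47 and 2.89 CPM in lab rats, without overlap. The log2 fold change of 2.08 (SE 0.34, FDR = 0.00268) stayed at 1.87 to 2.24 with each animal left out. Its FDR was 0.0144 without woodrat 2, 0.0137 without lab rat 1 and 0.0110 without lab rat 2.

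**Figure D3:**
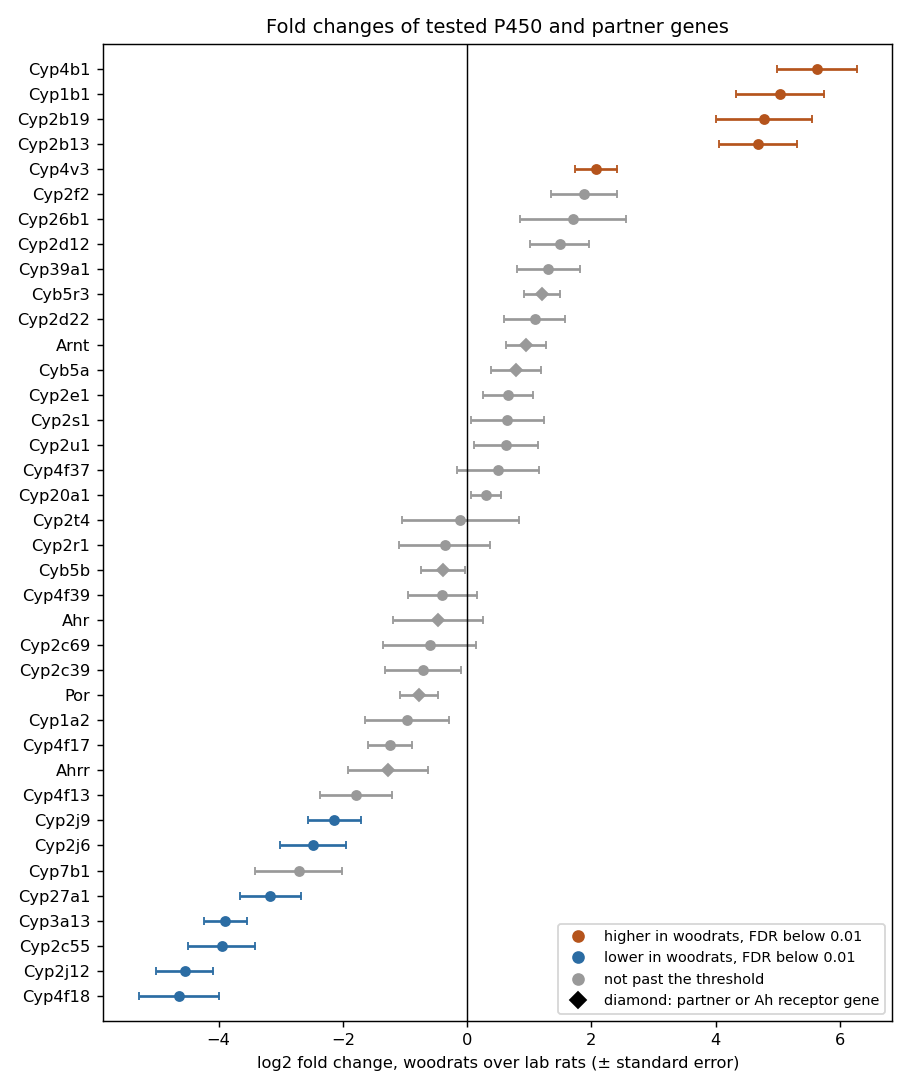
Log2 fold change (woodrats over lab rats) with its SE for the 31 tested P450 genes (circles) and 7 partner genes (diamonds). The 5 P450 genes higher in woodrats at an FDR below 0.01 lie between 2.08 and 5.63, the 7 lower ones between -4.64 and -2.14, and every diamond is grey, being past neither side of the threshold.

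On the list of P450s known from skin and squamous epithelium, 8 genes were in the files and 6 were tested, of which 3 were higher in woodrats (Cyp2b19, Cyp1b1 and Cyp4b1) and none was lower. This was 50.0% of the 6, beside 10.3% of all tested genes that were higher in woodrats. The other 3 varied widely between woodrats. Cyp4f39 (ENSMUSG00000061126.4), the mouse counterpart of the human acylceramide hydroxylase CYP4F22, stood at 26.0, 80.1 and 177 CPM in woodrats and 124, 134 and 116 CPM in lab rats. Woodrats thus fell on both sides of the lab rats, with a log2 fold change of -0.40 (SE 0.55, FDR = 0.591) that became 0.04 without woodrat 1. Cyp2s1 (ENSMUSG00000040703.10), an epithelial P450 that metabolizes retinoids and eicosanoids, stood at 55.7, 200 and 401 CPM in woodrats and 135, 173 and 111 CPM in lab rats. On the log2 scale the difference was 0.65 (SE 0.58, FDR = 0.399), and -0.12 without woodrat 3. Cyp26b1 (ENSMUSG00000063415.11), which breaks down retinoic acid, stood at 2.34, 6.11 and 27.6 CPM in woodrats and 5.21, 4.63 and 1.16 CPM in lab rats, with a log2 fold change of 1.70 (SE 0.86, FDR = 0.145) that was 0.20 without woodrat 3. In all 3 genes woodrat 1 was the lowest and woodrat 3 the highest of the woodrats, as was the summed level of the squamous markers. The part of squamous tissue content in these values was not tested, and in bulk tissue fewer cells of a type and less RNA per cell cannot be told apart.

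Cyp2f2 (ENSMUSG00000052974.7), known for the activation of naphthalene in airway club cells, had the highest mean CPM of the P450 genes over all 6 animals. In lab rats alone it had 1806 reads, fewer than Cyp2s1 with 2711 and Cyp4f39 with 2415. It stood at 128, 471 and 427 CPM in woodrats and 112, 48.6 and 117 CPM in lab rats. Woodrats were above lab rats without overlap, but woodrat 1 only narrowly. Expressed on the log2 scale, the difference was 1.88 (SE 0.53, FDR = 0.0223), short of the threshold. The FDR was 0.00463 without woodrat 1, and DESeq2 gave an adjusted p of 0.00177.

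Among the genes lower in woodrats, Cyp3a13 (ENSMUSG00000029727.7) had the smallest FDR. It belongs to the drug-oxidizing 3A subfamily and is expressed in the gut of rodents. Woodrats 1, 2 and 3 had 2.34, 2.78 and 2.01 CPM and lab rats 1, 2 and 3 had 44.3, 37.0 and 25.2 CPM. The estimate on the log2 scale was -3.90 (SE 0.35, FDR = 0.000323), a 14.9-fold difference that stayed past the threshold with each animal left out.

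Cyp2c55 (ENSMUSG00000025002.5), a P450 of the gastrointestinal tract that oxidizes arachidonic acid, was also lower in woodrats. It had 1, 9 and 16 reads in woodrats and 142, 106 and 107 in lab rats, or 0.195, 1.25 and 1.90 CPM against 17.6, 17.5 and 20.6 CPM. On the log2 scale the difference was -3.95 (SE 0.53, FDR = 0.00137), and all 6 fits with an animal left out gave an FDR below 0.01. The paralogs Cyp2c39 and Cyp2c69 had few reads in both species, at 0 to 1.39 CPM in woodrats and 1.12 to 2.15 CPM in lab rats, and their log2 fold changes of -0.71 and -0.61 did not pass the threshold (FDR = 0.375 and 0.541).

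All 3 tested genes of the Cyp2j subfamily, whose enzymes form epoxides of arachidonic acid, were lower in woodrats, beside 9.71% of all tested genes. Not all untested paralogs had this direction. Cyp2j13 had 24 woodrat and 8 lab rat reads, Cyp2j8 had 6 and 0, and Cyp2j11 had 5 and 1, whereas Cyp2j7 had 2 and 10. Cyp2j12 (ENSMUSG00000081225.3) had 0.195, 0.555 and 0.592 CPM in woodrats and 9.56, 13.7 and 10.98 CPM in lab rats. The species differed by a log2 fold change of -4.54 (SE 0.46, FDR = 0.000535) and stayed between -4.77 and -4.27 with each animal left out. Cyp2j9 (ENSMUSG00000015224.10) stood at 2.73, 5.14 and 2.01 CPM in woodrats and 10.8, 15.2 and 17.9 CPM in lab rats. The difference of -2.14 on the log2 scale (SE 0.43, FDR = 0.00569) was less secure, with an FDR between 0.0105 and 0.0213 in 5 of the fits that left out an animal, the exception being the fit without woodrat 2. Cyp2j6 (ENSMUSG00000052914.4) stood at 0.195, 1.11 and 0.592 CPM in woodrats and 4.09, 3.31 and 3.85 CPM in lab rats. Here the log2 fold change was -2.48 (SE 0.54, FDR = 0.00799). It passed in none of the 6 fits that left out an animal, with FDR values from 0.0124 to 0.0302, and was -3.13 without woodrat 2.

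Cyp27a1 (ENSMUSG00000026170.6), the mitochondrial sterol 27-hydroxylase, had 1.17, 1.67 and 0.711 CPM in woodrats and 6.58, 10.8 and 14.8 CPM in lab rats. Every lab rat was above every woodrat, with a log2 fold change of -3.17 (SE 0.49, FDR = 0.00216) that passed with each animal left out. Cyp4f18 (ENSMUSG00000003484.4), which inactivates leukotriene B4 in myeloid cells, had 0, 1 and 1 reads in woodrats and 24, 19 and 12 in lab rats. The ratio of the pooled rates was 29.6, with an exact 95% interval of 7.81 to 251 that covers counting error only. In edgeR its FDR was 0.00150. Of the 5 tested leukocyte markers, 4 were lower in woodrats past the threshold, beside 9.71% of all tested genes. The median log2 fold change over the 5 was -3.46, and Itgam and Adgre1 had 0 reads in woodrat 1. The remaining tested marker, Cd68, was even (log2 fold change -0.09, FDR = 0.899). Of the untested markers, Cd79a had 19 woodrat and 2 lab rat reads, and Cd3e had 4 and 20. The part of leukocyte content in the Cyp4f18 difference was not tested.

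The Ah receptor and the enzymes it induces did not differ in a single direction. Ahr (ENSMUSG00000019256.16), the receptor itself, had 1.95, 2.36 and 7.34 CPM in woodrats and 8.69, 6.45 and 1.16 CPM in lab rats, and the species overlapped over the whole range. A log2 fold change of -0.47 (SE 0.72, FDR = 0.628) became 0.04 without lab rat 1. Arnt (ENSMUSG00000015522.17), which dimerizes with the receptor, stood higher in every woodrat, at 45.7, 44.7 and 34.4 CPM against 27.7, 23.8 and 12.7 CPM, but the log2 fold change of 0.95 (SE 0.32) had an FDR of 0.0443. Ahrr (ENSMUSG00000021575.14), the receptor's repressor, had 0.391, 1.25 and 1.07 CPM in woodrats and 3.72, 2.15 and 0.770 CPM in lab rats (log2 fold change -1.27, SE 0.64, FDR = 0.147).

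Cyp1a1, the classical Ah receptor target, had 1, 0 and 0 reads in woodrats and 48, 16 and 5 in lab rats, which left it below the filter. The ratio of pooled rates, lab rats over woodrats, was 74.3 (exact 95% interval 12.9 to 2980, counting error only), and the FDR was 0.00447 when every gene was tested without a filter. Within lab rats, Cyp1a1, Ahr and Ahrr were each highest in lab rat 1 and lowest in lab rat 3. Lab rat 3 was also the lowest lab rat for 5804 of all 12603 tested genes and for 19 of the 31 tested P450 genes. Cyp1a2 (ENSMUSG00000032310.3) is a close paralog of Cyp1a1. It stood at 0.977, 1.53 and 0.355 CPM in woodrats and 3.10, 1.49 and 0.770 CPM in lab rats (log2 fold change -0.97, SE 0.68, FDR = 0.282). Thus Cyp1b1 was higher in woodrats, while the reads of Cyp1a1 came almost wholly from lab rats.

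A list of 12 genes of the Ah receptor complex and its targets was tested in full, with 3 lower in woodrats and none higher, or 25% called, a share near the 20.0% of all genes. Those were the quinone reductase Nqo1, the endocytic receptor Lrp2 and the Hsp90 co-chaperone Ptges3. Lrp2 is on the list of vitamin D action too, and whether the Ah receptor acts on it was not tested. Nqo1 had 15.4, 37.3 and 27.7 CPM in woodrats and 96.0, 144 and 113 CPM in lab rats (log2 fold change -2.13, SE 0.35, FDR = 0.00275). Its FDR was 0.0114 without lab rat 2 and 0.0118 without lab rat 3. Lrp2 had a log2 fold change of -2.80 (FDR = 0.00230). Ptges3 had one of -1.05 (FDR = 0.00659), which passed without lab rat 3 but not when any other animal was left out (FDR from 0.0116 to 0.0353).

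The electron donors of the microsomal P450s did not pass the threshold. Por (ENSMUSG00000005514.13), through which electrons reach every microsomal P450, stood at 90.4, 134 and 195 CPM in woodrats and 254, 223 and 240 CPM in lab rats. All lab rats were above all woodrats, yet the log2 fold change of -0.77 (SE 0.31) had an FDR of 0.0766. Cyb5r3 (ENSMUSG00000018042.16), the main cytochrome b5 reductase, ran the other way, at 284, 184 and 150 CPM in woodrats against 94.6, 94.9 and 78.0 CPM in lab rats. The estimate on the log2 scale was 1.21 (SE 0.29, FDR = 0.0127), with an FDR of 0.00657 without woodrat 3 and an adjusted p of 0.00187 in DESeq2. Its highest value was in woodrat 1, as was that of the smooth muscle markers, and the part of muscle content was not tested.

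Microsomal cytochrome b5 (Cyb5a, ENSMUSG00000024646.12) had 163, 479 and 335 CPM in woodrats and 133, 198 and 235 CPM in lab rats, with overlap (log2 fold change 0.79, SE 0.41, FDR = 0.157). The outer mitochondrial form (Cyb5b, ENSMUSG00000031924.3) had 20.5, 10.8 and 9.48 CPM in woodrats and 15.5, 16.4 and 21.4 CPM in lab rats (log2 fold change -0.39, SE 0.36, FDR = 0.409). Of 9 further electron donors and membrane partners in the files, all tested, 3 passed (33.3%, beside 20.0% of all genes). Cyb5r1, another reductase of the cytochrome b5 reductase family, was higher in woodrats (log2 fold change 2.33, SE 0.32, FDR = 0.00137). Pgrmc1, a haem-binding membrane protein that associates with P450s, was lower (log2 fold change -2.06, SE 0.27, FDR = 0.00118). Cyb5r4 was lower too (log2 fold change -1.25, FDR = 0.00538), although it passed without woodrat 1 but not when any other animal was left out (FDR from 0.0106 to 0.0227).

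Since a read can be placed on a paralog of the gene it came from, counts were also summed to 31 subfamilies and fitted together with all other genes. Reads that matched several genes equally well are not restored by summing. Of the 21 subfamilies tested, 4 were higher in woodrats (Cyp1b, Cyp2b, Cyp4b and Cyp4v) and 3 lower (Cyp27a, Cyp2j and Cyp3a), which was 33.3% of them, beside 19.9% of all entries in that fit (10.2% higher and 9.67% lower). Without woodrat 3 there were 5 lower subfamilies in place of 3. The Cyp2b sum of 2 genes was 99.8, 178 and 557 CPM in woodrats and 11.2, 11.4 and 9.44 CPM in lab rats. The sum differed by 4.70 on the log2 scale (SE 0.64, FDR = 0.00144), 3.70 without woodrat 3, and its FDR was 0.0128 without lab rat 3.

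The Cyp3a sum of 6 genes was 4.49, 4.997 and 3.32 CPM in woodrats and 46.0, 37.5 and 27.2 CPM in lab rats. The difference was -3.11 on the log2 scale (SE 0.33, FDR = 0.000641). Only reads that matched 1 gene are in this sum, and the part of read placement in the Cyp3a13 difference was not tested. The Cyp2j sum of 7 genes was 5.27, 8.88 and 4.501 CPM in woodrats and 25.6, 33.2 and 33.5 CPM in lab rats. The sum differed by -2.30 on the log2 scale (SE 0.34, FDR = 0.00185), and it passed with each animal left out, unlike Cyp2j6 and Cyp2j9 taken singly.

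Some sums changed the picture given by single genes. The Cyp2c sum of 12 genes was 2.15, 6.80 and 9.002 CPM in woodrats and 21.6, 23.0 and 24.1 CPM in lab rats, with a log2 fold change of -1.91 (SE 0.45) and an FDR of 0.0120, just short of the threshold that Cyp2c55 alone passed. It passed without woodrat 1 (FDR = 0.00887) and without woodrat 3 (FDR = 0.00602). The Cyp1a sum of 2 genes was 1.17, 1.53 and 0.355 CPM in woodrats and 9.06, 4.13 and 1.73 CPM in lab rats, with a log2 fold change of -2.33 (SE 0.72, FDR = 0.0319), and -1.55 without lab rat 1. For Cyp4f the 7 genes summed to 29.3, 86.2 and 184 CPM in woodrats and 139, 148 and 127 CPM in lab rats (log2 fold change -0.47, SE 0.54, FDR = 0.512), a sum made mostly of Cyp4f39 reads.

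Low levels were left for the remaining subfamilies. The Cyp2d sum of 7 genes was 4.30, 6.66 and 3.32 CPM in woodrats and 2.36, 1.98 and 1.73 CPM in lab rats (log2 fold change 1.21, SE 0.42, FDR = 0.0465). Neither Cyp2a (4 genes) nor Cyp4a (4 genes) passed the filter as a sum. Woodrats 1, 2 and 3 had 5, 32 and 10 Cyp2a reads and lab rats 1, 2 and 3 had 5, 2 and 4.

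**Figure D4:**
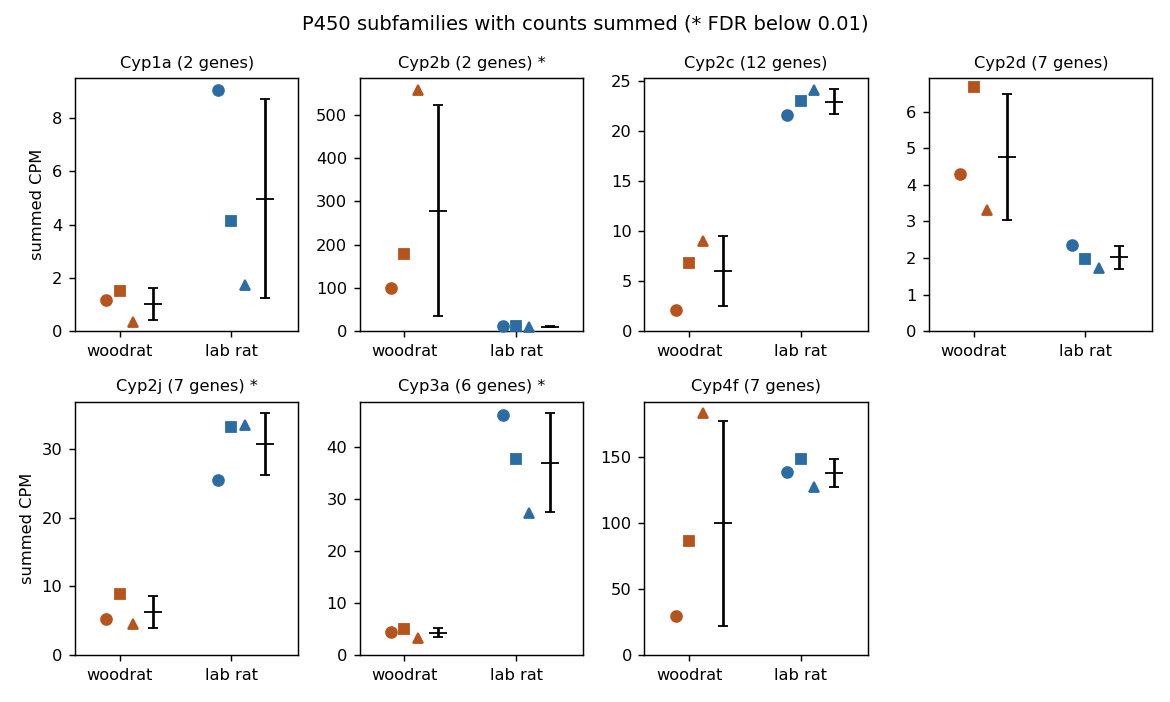
Summed TMM-normalized CPM of the 7 tested subfamilies with 2 or more genes in the files, with 1 symbol per animal and the mean and SD over 3 animals beside them. Cyp2b (99.8 to 557 CPM in woodrats, 9.44 to 11.4 in lab rats), Cyp2j and Cyp3a carry asterisks for an FDR below 0.01, and Cyp4f is the panel in which the species overlap.

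The bile acid and oxysterol hydroxylases comprised 6 genes in the files, of which 3 were tested and 1, Cyp27a1, passed (33.3%, beside 20.0% of all genes). Cyp7b1 (ENSMUSG00000039519.6), which hydroxylates oxysterols, had 0, 2 and 7 reads in woodrats and 24, 20 and 11 in lab rats. No woodrat reached a lab rat, but the log2 fold change of -2.71 (SE 0.71) had an FDR of 0.0168. Without woodrat 3 the FDR was 0.00599 and the log2 fold change -3.99, and DESeq2 gave an adjusted p of 0.00344. Cyp39a1 (ENSMUSG00000023963.9), the hydroxylase of 24-hydroxycholesterol, had 6.05, 11.5 and 26.5 CPM in woodrats and 6.08, 6.62 and 5.20 CPM in lab rats (log2 fold change 1.31, SE 0.51, FDR = 0.0710). Cyp7a1 and Cyp8b1, which act in bile acid synthesis in the liver, had at most 3 reads in any animal, as did Cyp46a1.

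Of the vitamin D hydroxylases, the 25-hydroxylase Cyp2r1 (ENSMUSG00000030670.14) was at 0.195, 0.694 and 2.13 CPM in woodrats and 2.11, 1.16 and 0.770 CPM in lab rats. The sign of its log2 fold change of -0.36 (SE 0.73, FDR = 0.722) turned to 0.04 without woodrat 1 and to 0.14 without lab rat 1. The activating enzyme Cyp27b1 had 1 read over all woodrats and 5 over all lab rats. Cyp24a1 is not analysed here. On a list of vitamin D action, 7 of 9 genes were in the files and 6 were tested, of which 2 passed (33.3%, beside 20.0% of all genes). The calcium-binding protein S100g was higher in woodrats, at 27.3, 7.91 and 33.1 CPM against 0.993, 1.65 and 2.89 CPM (log2 fold change 3.66, SE 0.63, FDR = 0.00319), although its FDR was 0.0135, 0.0149 and 0.0127 without lab rats 1, 2 and 3. Lrp2, also on this list, was the gene lower in woodrats.

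Around retinoic acid, 13 genes of a list of 15 were in the files and 12 were tested, of which 4 were lower and 1 was higher in woodrats. The called genes were 41.7% of those tested, beside 20.0% of all genes. Aldh1a2, which makes retinoic acid, had 1.95, 2.78 and 2.13 CPM in woodrats and 19.7, 24.1 and 20.4 CPM in lab rats (log2 fold change -3.21, SE 0.31, FDR = 0.000485). The retinoic acid-binding protein Crabp2 had a log2 fold change of -2.40 (SE 0.34, FDR = 0.00163). The retinol dehydrogenase Rdh10 was lower too (log2 fold change -1.73, FDR = 0.00833), but it passed in none of the 6 fits that left out an animal (FDR from 0.0178 to 0.0326).

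The retinol uptake receptor Stra6 had 9, 34 and 27 reads in woodrats and 1, 0 and 0 in lab rats. Its ratio of pooled rates was 65.0 (exact 95% interval 11.3 to 2610, counting error only) and its FDR was 0.00212, or 0.01, 0.0101 and 0.0113 without lab rats 1, 2 and 3. Of the hydroxylases that clear retinoic acid, Cyp26b1 did not pass, as given above, and Cyp26a1 had 3 reads over all woodrats and 1 over all lab rats.

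Epoxide hydrolases open the epoxides that P450s form, and 2 of the 3 tested were higher in woodrats (66.7%, beside 20.0% of all genes called). The soluble enzyme Ephx2, which opens epoxides of arachidonic acid, had 78.7, 122 and 254 CPM in woodrats and 5.71, 5.29 and 8.67 CPM in lab rats. The difference was 4.54 on the log2 scale (SE 0.49, FDR = 0.000696), and 3.94 without woodrat 3. The microsomal enzyme Ephx1, which hydrolyses many xenobiotic epoxides, had 131, 282 and 224 CPM in woodrats and 23.3, 22.3 and 33.7 CPM in lab rats (log2 fold change 3.01, SE 0.35, FDR = 0.000849). Ephx3 did not pass (FDR = 0.251) and Ephx4 was below the filter.

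On the epidermal lipoxygenase list, 1 of 7 tested genes passed (14.3%, beside 20.0% of all genes). Alox15 had 168, 862 and 3619 reads in woodrats and 3, 4 and 4 in lab rats, with a log2 fold change of 8.34 (SE 1.09, FDR = 0.00120). It was 6.999 without woodrat 3, and the FDR was 0.0118 without lab rat 3. On a list of xenobiotic-sensing nuclear receptors and their partners, 6 genes were tested, namely the receptors Rxra, Rxrb, Rxrg and Ppara and the coregulators Ncor1 and Ncoa1. None passed in edgeR or DESeq2. Rxrb, Ncor1 and Ncoa1 had an unadjusted p below 0.05 in edgeR, as did 6259 of all 12603 tested genes. Nr1i3 (the receptor CAR) had 9 woodrat reads and 0 lab rat reads in total.

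Over the 8 lists of genes around the P450 system, 67 genes that are not members were tested, of which 8 were higher and 13 lower in woodrats (31.3%, beside 20.0% of all genes). The higher genes numbered 5 without lab rat 3, and the lower ones numbered 6 without woodrat 2 or lab rat 2 and 7 without lab rat 1 or lab rat 3. Haem synthesis and breakdown genes were all tested (13 genes). Of them, 4 were lower and 2 were higher in woodrats, or 46.2% of the list beside 20.0% of all genes. Alas1, the first and rate-limiting enzyme of haem synthesis outside red cells, had 51.8, 63.3 and 59.1 CPM in woodrats and 118, 116 and 143 CPM in lab rats (log2 fold change -1.11, SE 0.22, FDR = 0.00603). Alad and Urod, later enzymes of the pathway, were lower as well, at -1.77 (FDR = 0.00882) and -1.92 (FDR = 0.00420) on the log2 scale. Uros, which acts just before Urod, ran the other way, at 28.5, 18.5 and 13.0 CPM in woodrats against 2.48, 3.14 and 1.93 CPM in lab rats (log2 fold change 2.97, SE 0.41, FDR = 0.00140). Biliverdin reductase Blvra, which acts after haem is opened, was also higher (log2 fold change 1.85, SE 0.27, FDR = 0.00184).

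Alas1 and Rdh10 were named after their values were seen. The haem calls differed in how they held when 1 animal was left out. Uros and Blvra passed in all 6 fits. Urod failed without woodrat 2 (FDR = 0.0190). Alad and Alas1 passed in none of the 6, with FDR values of 0.0108 to 0.0294 and 0.0111 to 0.0243. The haem oxygenases Hmox1 and Hmox2 did not pass (FDR = 0.974 and 0.146).

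**Figure D5:**
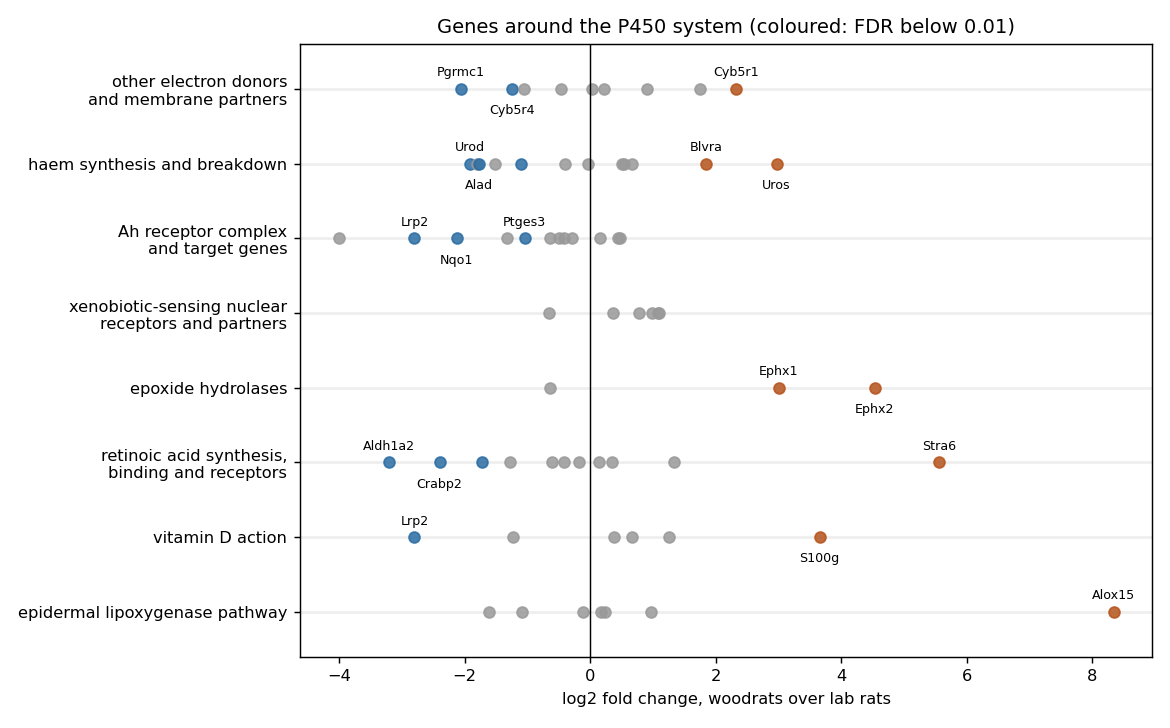
Log2 fold change (woodrats over lab rats) of tested genes on 8 lists of genes around the P450 system, coloured where the FDR was below 0.01 (orange higher, blue lower in woodrats) and grey elsewhere, without the genes that are not reported here. Alox15 at 8.34 lies farthest to the right, and Aldh1a2, at -3.21, is among the blue points on the left.

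The other tested P450 genes did not pass the threshold. Cyp2d12 and Cyp2d22 were above lab rats in every woodrat, with log2 fold changes of 1.49 (FDR = 0.0355) and 1.09 (FDR = 0.110) at levels under 3 CPM. Cyp4f13 and Cyp4f17 were below lab rats in every woodrat, with log2 fold changes of -1.79 (FDR = 0.0372) and -1.24 (FDR = 0.0238). The ethanol-oxidizing Cyp2e1 overlapped between species, at 4.26 to 7.62 CPM in woodrats and 2.98 to 5.20 CPM in lab rats (FDR = 0.225). Cyp20a1, an orphan P450, was among the most even members, at 24.5 to 31.6 CPM in woodrats and 22.8 to 24.7 CPM in lab rats (log2 fold change 0.30, SE 0.24, FDR = 0.335). Cyp2u1 and Cyp4f37 had FDR values of 0.365 and 0.568. Cyp2t4 stood apart for a single animal, with 429 reads in woodrat 2 beside 21 and 35 in woodrats 1 and 3 and 108 to 176 in the lab rats. In CPM that was 59.5 in woodrat 2 against 4.10 and 4.15 in the other woodrats, and the log2 fold change of -0.11 (SE 0.94, FDR = 0.936) was -2.61 without woodrat 2.

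The 42 P450 genes that were not tested summed to 9.38, 14.8 and 10.7 CPM in woodrats and 14.5, 8.44 and 7.13 CPM in lab rats, a small part of all P450 reads. Of these genes, 11 had no lab rat reads, and the highest total over the woodrats was 29 reads for Cyp2c66. They include Cyp17a1 of steroid hormone synthesis, with 1 read in all, and the 4 genes of the fatty acid hydroxylase subfamily Cyp4a, with 9 reads over all woodrats and 7 over all lab rats in the subfamily sum. At 0.355 to 0.586 CPM per 3 reads, differences between species in these genes were not detectable at this depth, apart from Cyp1a1.

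The tested P450 genes had a wide spread between woodrats. The median coefficient of variation (SD over mean CPM) of the 31 tested P450 genes was 65.0% in woodrats and 22.4% in lab rats, beside 26.3% and 26.6% over all 12603 tested genes. Counting error adds to this value in genes with few reads, such as Cyp4f18 with 0, 1 and 1 in woodrats or Cyp1b1 with 1, 5 and 0 in lab rats. The values over all genes were not matched for level. Woodrat 1 was the lowest woodrat for 23 of the 31 genes (74.2%), beside 39.1% of all tested genes. It was also lowest for 9 of the 11 squamous markers and highest for all 6 smooth muscle markers. Cyp3a13, at 2.01 to 2.78 CPM, and Cyp1b1, at 9.57 to 12.2 CPM, were exceptions with a narrow range over the woodrats. The part of tissue make-up in the spread of the P450 genes was not tested.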

How the data were processed

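PolyA RNA of the foregut of 3 woodrats and 3 lab rats was sequenced by the authors, with 1 stranded library per animal. Per the study's methods, the authors trimmed and merged the reads, aligned them with cross_match to mouse coding transcripts of GENCODE release M7 and counted reads that matched 1 gene. The deposited values are these counts per gene, not normalized. Reads of both species were thus placed on mouse genes. The authors report no overall mapping bias between the species, and a close correlation with counts on each species' own sequences, plotted for smooth muscle genes. For single P450 genes, differences in sequence divergence, in the placement of paralogs and in species cannot be told apart here. No reference sequence was used here.

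Counts were analysed with edgeR 4.0.16 in R 4.3.3, with TMM normalization, genes at 1 CPM or more in at least 3 animals, a model of species alone, a prior count of 0.125, the quasi-likelihood F-test, and p-values adjusted by Benjamini-Hochberg (FDR below 0.01). Positive log2 fold changes mean higher in woodrats, and the standard error is the absolute log2 fold change over the square root of F. P450 subfamily sums replaced their genes in a second fit. Ratios of pooled rates were given with exact 95% intervals (SciPy 1.17.1), which cover counting error only, as do the limits from 3 reads. DESeq2 1.42.0, other normalizations, filters, thresholds and tests, a replicate block and leaving out each animal were tried as alternatives. The fit was first tested on simulated data with known changes.

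Members and gene lists were chosen with earlier results of these data known. Genes were named as follows: the 7 partners, all called P450s, tested retinoic acid, vitamin D, Ah receptor-inducible and skin P450s, the 5 most-read P450s, called subfamily sums and up to 4 called genes per list. Other genes were added to account for every tested member. Some listed genes are counted but not reported here by name.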

Additional observations from a re-analysis of the deposited data

How the results depend on the processing

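With the replicate number as a block, 3 P450 genes were higher and 3 lower in woodrats, against 5 and 7 without it, and 5 listed genes around the P450 system were higher and 5 lower, against 8 and 13. The numbers did not pair the animals, since the correlations of deviations between same-numbered animals ranged from -0.289 to -0.088. At an FDR below 0.05, 9 members were higher (7 P450 genes, Cyb5r3 and Arnt) and 10 lower (all P450 genes), and 6 subfamily sums were higher and 6 lower. DESeq2 called 5 subfamily sums higher and 6 lower, against 4 and 3. In the fit of single genes, DESeq2 called 31.1% of all genes at an adjusted p below 0.01, against 20.0% in edgeR. With each animal left out in turn, 3 to 6 P450 genes were higher and 5 to 6 lower, 3 to 5 subfamily sums were higher and 3 to 5 lower, and 5 to 8 listed genes were higher and 6 to 11 lower. Direction turned in genes that did not pass the threshold. As log2 fold changes with each animal left out, Cyp2r1 ranged from -1.514 to 0.137 (0.043 without woodrat 1, 0.137 without lab rat 1), Cyp2s1 from -0.124 (without woodrat 3) to 1.105, Cyp2t4 from -2.606 to 0.394 (0.378 without woodrat 1, 0.394 without woodrat 3, 0.198 without lab rat 3), Cyp2u1 from -0.009 (without woodrat 3) to 0.955, Cyp4f39 from -1.229 to 0.044 (without woodrat 1) and Ahr from -1.342 to 0.04 (without lab rat 1). The cause was not tested. With total counts in place of TMM, Cyp2j6 did not pass the threshold. The edgeR p-values set the difference between species against a spread between 3 animals per species. That spread is estimated for each gene with information shared over all tested genes. An exact permutation test of 3 against 3 cannot go below 0.1. Genes with few reads were limited by depth.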
